A study of Mus musculus with 6 samples.

Results

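The genes of the common gamma chain cytokine receptors, their kinase and the STAT5 factors were examined in mouse CD8+ T cells before and after stimulation, with and without a static magnetic field (SMF). The members were *Il2ra*, *Il2rb*, *Il2rg*, *Il7r*, *Il4ra*, *Il15ra*, *Il21r*, *Jak3*, *Stat5a* and *Stat5b*, matched by gene name, 10 of the 54446 genes in the files. RNA-Seq was performed on CD8+ T cells obtained by negative selection from spleens of wild type C57BL/6 mice aged 8 weeks. The unstimulated group held fresh cells, the control group held cells stimulated for 72 h without magnets on wells coated with antibodies to CD3 and CD28, and the SMF group held cells stimulated in the same way on 0.3 T permanent magnets. No group was cultured without stimulation, so stimulation and time in culture cannot be told apart. Each group had 2 libraries, made from total RNA. The sources do not say whether the 2 came from separate mice, so p values measure only the spread between these libraries.

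The receptors for interleukins of this family pair the common gamma chain, encoded by *Il2rg*, with other chains that set which cytokine is bound. JAK3 binds the common gamma chain and JAK1 the partner chain. The activated kinases phosphorylate STAT factors, among them STAT5A and STAT5B, which enter the nucleus and drive genes of growth and survival. In CD8+ T cells, interleukin-7 is known for keeping resting cells alive, whereas interleukin-2 supports the expansion of activated cells through a high affinity receptor that needs the alpha chain, CD25, encoded by *Il2ra*.

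Levels are given in FPKM, the fragments of a gene scaled to transcript length and library size, which allows levels of different genes to be compared. A gene is said to have risen or fallen, or to be called, where limma gave a change of 2-fold or more and its unadjusted p was 0.05 or less; 14991 genes were tested. Depth was counted in read bases, the coverage of each transcript times its length, summed over transcripts. It was 67.4 Mb and 132 Mb for unstimulated replicates 1 and 2. The control replicates had 64.4 Mb and 172 Mb, and the SMF replicates 259 Mb and 227 Mb. Replicate 1 of the unstimulated and control groups was thus the least deep, and a gene listed at 0 there carries less weight. Folder names in the file headers carry a date in 2017 that replicate 1 of these groups shared and another that replicate 2 shared, and 1 in 2018 for both SMF libraries. Date and field therefore cannot be told apart between SMF and control. No SMF library shared a date with an unstimulated one either, so date, stimulation and field cannot be told apart in that comparison. Protein-coding genes took 69.2% and 68.7% of all FPKM in SMF replicates 1 and 2, against 49.1% to 50.5% in the other 4 libraries. The median log2 fold change of all tested genes was 0.32 for SMF against control, 0.27 for SMF against unstimulated and -0.05 for control against unstimulated.

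The 5 CD8 T cell markers (*Cd3e*, *Cd3d*, *Cd3g*, *Cd8a*, *Cd8b1*) were above 0 in every library. They summed to 521 and 632 FPKM in the unstimulated libraries, 271 and 441 FPKM in control and 748 and 629 FPKM in SMF. In control against unstimulated, 2 were called lower, *Cd8a* by -1.08 and *Cd8b1* by -1.31 (unadjusted p = 0.0132 and 0.0373 in limma). Of all tested genes 12.6% were called lower and 12.3% higher, and 0 of the 5 markers were called higher. The B cell markers *Ms4a1*, *Cd79a* and *Cd79b* summed to 104 and 83.0 FPKM in the unstimulated libraries, against 2.43 to 23.3 FPKM in the stimulated ones. *Lyz2* and *Adgre1* of the 5 myeloid markers, and both NK cell markers (*Ncr1*, *Klrb1c*), were above 0 in both unstimulated libraries and listed at 0 in all 4 stimulated ones. The 3 dendritic cell markers (*Xcr1*, *Siglech*, *Flt3*) summed to 11.9 and 15.0 FPKM before stimulation and to 0.448 to 4.0 FPKM after it. Markers of these other cells were thus higher in the unstimulated libraries. *Itgam* was at 5.45 and 1.51 FPKM before and at most 0.180 FPKM after, and *Cd14* was above 0 in 1 library, unstimulated replicate 2, at 1.88 FPKM. *Csf1r* stayed between 41.1 and 53.8 FPKM after stimulation. The last exon held 99.9% to 100% of its read bases then, and 85.8% and 90.6% in the unstimulated libraries. Exons of *Csf1r* face *Hmgxb3* on the opposite strand over 17.8% of their bases. *Cd4* did not exceed 4.68 FPKM, and *Foxp3* ranged from 4.92 to 20.7 FPKM with 58.6% to 100% of its read bases in the last exon. Of the erythroid markers, *Hbb-bs* was listed at 0 throughout and *Hba-a1* reached 2.77 FPKM in 1 library. In bulk RNA, fewer cells of a type and less RNA per cell cannot be told apart. The part of these other cells in the unstimulated levels below was not tested.

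The start regions of *Il2ra* and *Il7r* are shown because *Il2ra* had the largest fold change among the members and *Il7r* was the member that fell, and a short stretch at *Cish* is shown because its STAT5 type motifs come as a pair. RefSeq windows (GRCm38.p6) were available for 9 of the 10 members, 12 windows in all, and run from 250 bases before to 50 after an annotated start. The *Il2ra* window, chr2:11642542-11642841 on the plus strand, has in capitals the run covered by 2 overlapping matches to the NF-kappaB consensus. The *Il7r* window, chr15:9529827-9530126 on the minus strand, and the *Cish* stretch, chr9:107296659-107296678 on the plus strand, have in capitals the matches to TTCNNNGAA, the spaced inverted repeat to which STAT dimers bind.
Il2ra: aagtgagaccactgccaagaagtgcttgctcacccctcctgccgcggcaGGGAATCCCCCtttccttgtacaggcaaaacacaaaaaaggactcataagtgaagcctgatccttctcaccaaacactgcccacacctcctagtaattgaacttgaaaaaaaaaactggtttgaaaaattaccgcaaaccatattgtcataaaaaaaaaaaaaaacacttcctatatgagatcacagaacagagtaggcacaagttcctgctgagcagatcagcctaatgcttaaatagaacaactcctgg
Il7r: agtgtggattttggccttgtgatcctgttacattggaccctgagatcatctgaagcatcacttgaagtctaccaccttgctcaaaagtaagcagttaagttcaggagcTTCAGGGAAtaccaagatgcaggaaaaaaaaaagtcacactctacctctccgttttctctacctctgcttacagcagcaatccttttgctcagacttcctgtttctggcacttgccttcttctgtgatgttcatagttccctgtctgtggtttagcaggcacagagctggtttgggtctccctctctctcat
Cish: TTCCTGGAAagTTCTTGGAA
Both strands were searched in 32851 windows, of which 8.30% held TTCNNNGAA, 4.51% the NF-kappaB consensus and 7.81% the AP-1 motif TGANTCA. Among the members, TTCNNNGAA was in the window of *Il7r*, beginning 142 bases before the start. The NF-kappaB consensus was in windows of *Il2ra*, *Il4ra* and *Stat5a*, and TGANTCA in a window of *Il15ra*. At *Cish* the matches begin at the first and at the 12th base of the transcript. These matches are descriptions of the letters and were not tested for binding.

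In control against unstimulated, *Il2ra*, *Il2rb* and *Il15ra* rose and *Il7r* fell. These were 3 members called higher, where 12.3% of all tested genes were, and 1 called lower, where 12.6% were. The remaining 6 members did not pass. Both control libraries lay above both unstimulated libraries for 5 members (24.8% of tested genes) and below for 1 (26.6%). The median log2 fold change of the members was 0.86, or 0.77 without *Il15ra*.

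**Figure D1:**
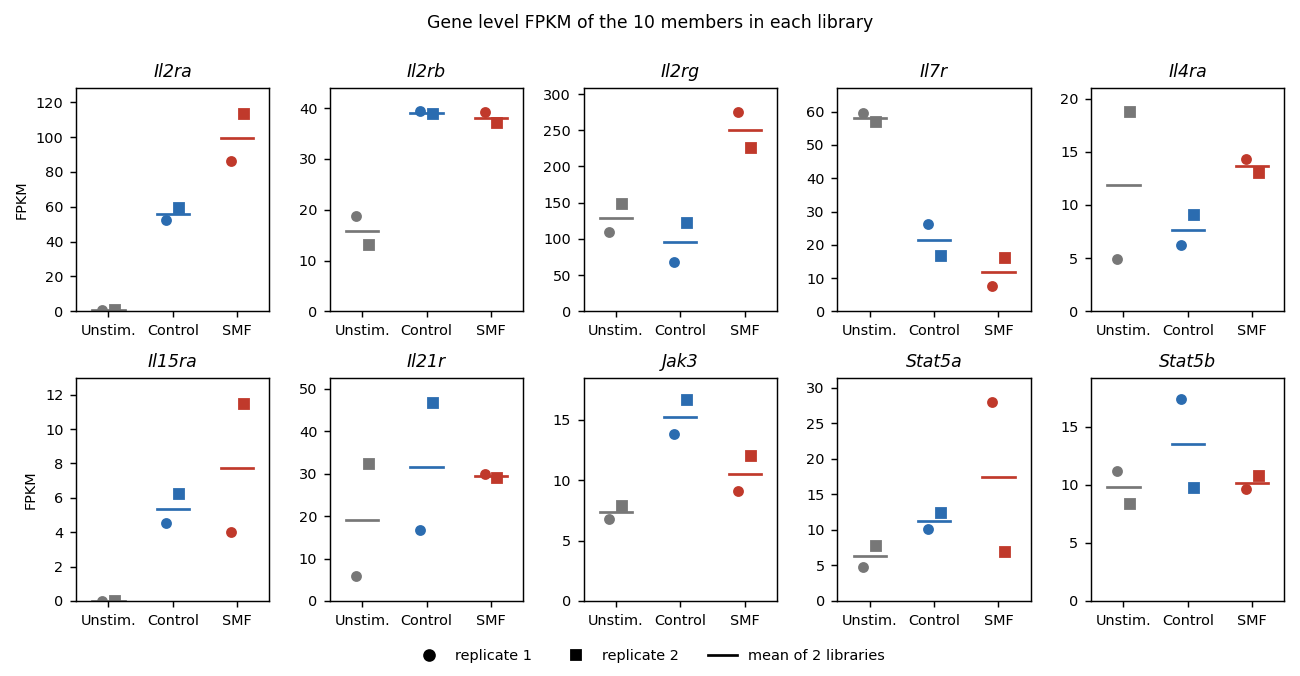
FPKM of each member (vertical axes, linear and starting at 0) in the unstimulated, control and SMF libraries. Circles are replicate 1, squares replicate 2 and bars the mean of the 2 libraries; *Il2ra* runs from under 1 FPKM to 113 FPKM, *Il7r* falls from 59.5 FPKM to 7.72 FPKM, and *Il21r*, *Il4ra* and *Stat5a* have replicates far apart in at least 1 group.

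*Il2ra* (chromosome 2, 11642807-11693193, plus strand) encodes the interleukin-2 receptor alpha chain. It was at 0.708 and 0.894 FPKM in the unstimulated libraries, 52.4 and 59.2 FPKM in the control libraries and 86.5 and 113 FPKM in the SMF libraries. The 3 groups did not overlap. The ratio of mean FPKM to the unstimulated group was 69.6 for control and 125 for SMF. On the log2 scale of FPKM + 1 the rise was 4.98 (SE 0.33, adjusted p = 0.0052 in limma) for control and 5.80 (SE 0.33, adjusted p = 0.0030 in limma) for SMF. It was nearly equal within each folder date, with control above unstimulated by 4.97 for replicate 1 and 4.99 for replicate 2.

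Reads reached all 8 exons of *Il2ra* in each stimulated library. In both unstimulated libraries they were confined to the last and longest exon of 3436 bases. Coding transcripts took 93.2% to 99.2% of the FPKM of the gene after stimulation.

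*Il2rb* (chromosome 15, 78479256-78495271, minus strand) encodes the beta chain shared by the receptors for interleukin-2 and interleukin-15. It was at 18.8 and 13.0 FPKM in the unstimulated libraries, 39.4 and 38.8 FPKM in the control libraries and 39.1 and 37.1 FPKM in the SMF libraries. The stimulated libraries were close together and all above the unstimulated ones. The rise was 1.27 (SE 0.32, unadjusted p = 0.0069, adjusted p = 0.064 in limma) in control and 1.23 (SE 0.32, adjusted p = 0.039 in limma) in SMF. For SMF it was 0.98 after shifting the libraries to one median, 0.77 after scaling them to one protein-coding sum and 0.98 without unstimulated replicate 2, each under the fold limit. SMF and control differed by -0.03 with a 95% interval from -0.81 to 0.74.

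*Il15ra* (chromosome 2, 11705290-11734317, plus strand) encodes the alpha chain that presents interleukin-15. It was listed at 0 in both unstimulated libraries, at 4.52 and 6.22 FPKM in the control libraries and at 4.03 and 11.5 FPKM in the SMF libraries. No fold is given against a group at 0; unadjusted p was 0.0050 for control and 0.0029 for SMF, with adjusted p of 0.055 and 0.022 in limma. Which of its 18 annotated transcripts took the signal varied. Coding transcripts held 4.52 and 0 FPKM in the control libraries and 1.1 and 5.43 FPKM in the SMF libraries, the remainder being retained-intron transcripts. With coding transcripts alone, an alternative chosen after seeing the data, neither call held (unadjusted p = 0.253 for control and 0.102 for SMF in limma).

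*Il7r* (chromosome 15, 9505788-9530176, minus strand) encodes the interleukin-7 receptor alpha chain, which also serves thymic stromal lymphopoietin. It was at 59.5 and 56.9 FPKM in the unstimulated libraries, 26.3 and 16.5 FPKM in the control libraries and 7.72 and 15.9 FPKM in the SMF libraries. Every stimulated library lay below both unstimulated ones. The fall was -1.44 (SE 0.44, unadjusted p = 0.017, adjusted p = 0.0999 in limma) in control and -2.29 (SE 0.44, adjusted p = 0.018 in limma) in SMF. Within a folder date, control was lower than unstimulated by -1.15 for replicate 1 and -1.72 for replicate 2. The call in control was lost without unstimulated replicate 1 (unadjusted p = 0.0962 in limma), without unstimulated replicate 2 (0.0873) and without control replicate 2 (0.0966).

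*Il4ra* (chromosome 7, 125552120-125579474, plus strand), the interleukin-4 receptor alpha chain, was at 4.95 and 18.7 FPKM in the unstimulated libraries, 6.21 and 9.06 FPKM in the control libraries and 14.3 and 13.0 FPKM in the SMF libraries. The unstimulated libraries were the lowest and the highest of the 6. No comparison passed, with 95% intervals from -1.87 to 1.18 for control against unstimulated and from -0.74 to 2.31 for SMF against control. Either unstimulated library decided the outcome: without replicate 1 control was called lower (-1.21, unadjusted p = 0.0397 in limma), and without replicate 2 SMF was called higher (1.3, unadjusted p = 0.0413 in limma). Its exons face those of the antisense gene *Gm44876* over 9.51% of their bases, and that gene was at 101 and 54.5, 84.5 and 51.9, and 28.1 and 29.2 FPKM in the unstimulated, control and SMF libraries. Antisense genes as a class took 12.3% and 12.8% of all FPKM in SMF replicates 1 and 2, against 19.5% to 24.7% in the other 4 libraries; their part in the level of *Il4ra* was not tested. A retained-intron transcript held 59.7% of *Il4ra* FPKM in unstimulated replicate 2 and 52.4% in control replicate 2, and 0 in replicate 1 of both groups.

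*Il21r* (chromosome 7, 125603429-125633570, plus strand), the interleukin-21 receptor, was at 5.87 and 32.4 FPKM in the unstimulated libraries, 16.6 and 46.7 FPKM in the control libraries and 29.9 and 29.1 FPKM in the SMF libraries. Replicate 2 was far above replicate 1 in both groups of the earlier dates, and no comparison passed. The intervals were wide, from -1.06 to 2.93 for control against unstimulated and from -1.92 to 2.07 for SMF against control.

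**Figure D2:**
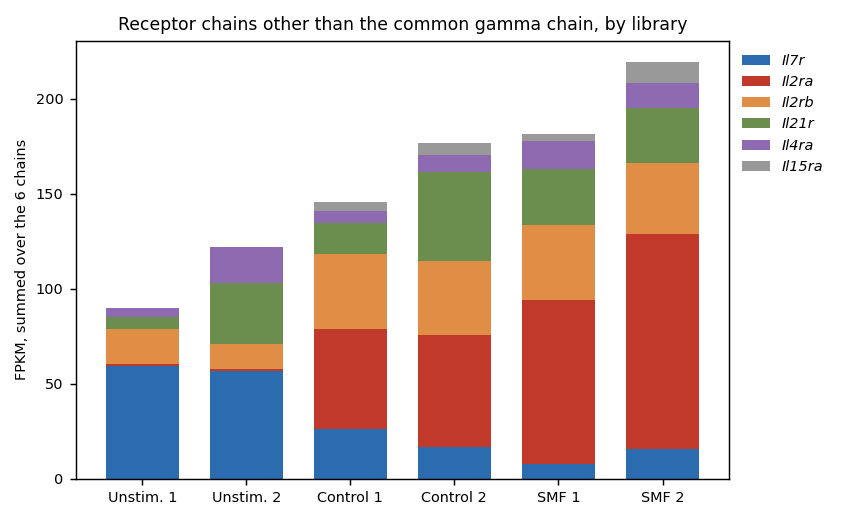
FPKM of the 6 receptor chains other than the common gamma chain, stacked for each library (vertical axis, FPKM from 0). *Il7r* makes up 66.3% and 46.7% of the bar in the unstimulated libraries and 4.25% and 7.23% in the SMF libraries, where *Il2ra* makes up 47.6% and 51.5%.

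Added together, the 6 chains other than the common gamma chain summed to 89.9 and 122 FPKM in the unstimulated libraries, 145 and 176 FPKM in the control libraries and 182 and 220 FPKM in the SMF libraries. In the unstimulated libraries *Il7r* was the largest of the 6, with *Il2ra* at 0.788% and 0.733% of the sum. In the control libraries *Il2ra* held 36.0% and 33.5% and *Il7r* 18.1% and 9.37%. The ratio of *Il2ra* to *Il2rb* was 0.0377 and 0.0689 before stimulation, 1.33 and 1.53 in control and 2.21 and 3.04 in SMF.

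In each group *Il2rg* was the member with the highest level, apart from all others. *Il7r* came next in the unstimulated group and *Il2ra* next in both stimulated groups, and neither overlapped the member above or below it in that order. In the control group the order from *Il2rb* through *Il21r*, *Il7r* and *Jak3* to *Stat5b* and *Stat5a* had overlapping neighbours throughout. In the SMF group the same held from *Stat5a* down to *Il15ra*, through *Il4ra*, *Il7r*, *Jak3* and *Stat5b*.

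*Il2rg* (chromosome X, 101264378-101268255, minus strand), the common gamma chain itself, was at 109 and 148 FPKM in the unstimulated libraries, 68.3 and 122 FPKM in the control libraries and 275 and 226 FPKM in the SMF libraries. Control and unstimulated libraries overlapped, and both SMF libraries lay above all others. *Il2rg* was the member called between SMF and control, 1 of 10 called higher where 12.5% of all tested genes were, and 0 were called lower where 5.72% were. It was 1.44 higher in SMF (SE 0.35, 95% interval 0.59 to 2.29, unadjusted p = 0.0059, adjusted p = 0.147 in limma). Relative to the median of all genes the difference was 1.12, and after scaling the libraries to one protein-coding sum it was 1.1 (unadjusted p = 0.0155 in limma). The call was lost without SMF replicate 1 (1.3, unadjusted p = 0.0546) and with the replicate block in the 4 libraries of these groups (unadjusted p = 0.0502). No folder date held libraries of both groups, so no value within a date can be given.

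Depth on all 8 exons of *Il2rg* was higher in each SMF library than in either control library, and coding transcripts held 67.9% to 80.3% of its FPKM in every library. Of the 5 CD8 T cell markers, 2 were called higher in SMF than in control, *Cd8a* by 2.01 (SE 0.31, adjusted p = 0.136 in limma) and *Cd3d* by 1.40 (SE 0.26, adjusted p = 0.136 in limma). *Cd3g* differed by 0.95 (unadjusted p = 0.0271 in limma), under the fold limit. *Cd3e* at 0.20 (unadjusted p = 0.514 in limma) and *Cd8b1* at 0.24 (unadjusted p = 0.641 in limma) were not called, overlapped between the groups and lay under the 0.32 of the median gene. The 5 markers summed to 271 and 441 FPKM in control against 748 and 629 FPKM in SMF. The ratio of *Il2rg* to that sum was 0.209 and 0.234 in the unstimulated libraries, 0.252 and 0.277 in control and 0.368 and 0.359 in SMF. That ratio depends on the markers summed. Between SMF and control, *Il2rg* at 1.44 differed by less than *Cd8a* and by about as much as *Cd3d*. It differed by more than *Cd3g*, *Cd3e* and *Cd8b1*. *Cd79a*, a B cell gene, was at 13.4 and 6.96 FPKM in control and 1.85 and 2.43 FPKM in SMF. The part of cell makeup in the *Il2rg* difference was not tested.

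**Figure D3:**
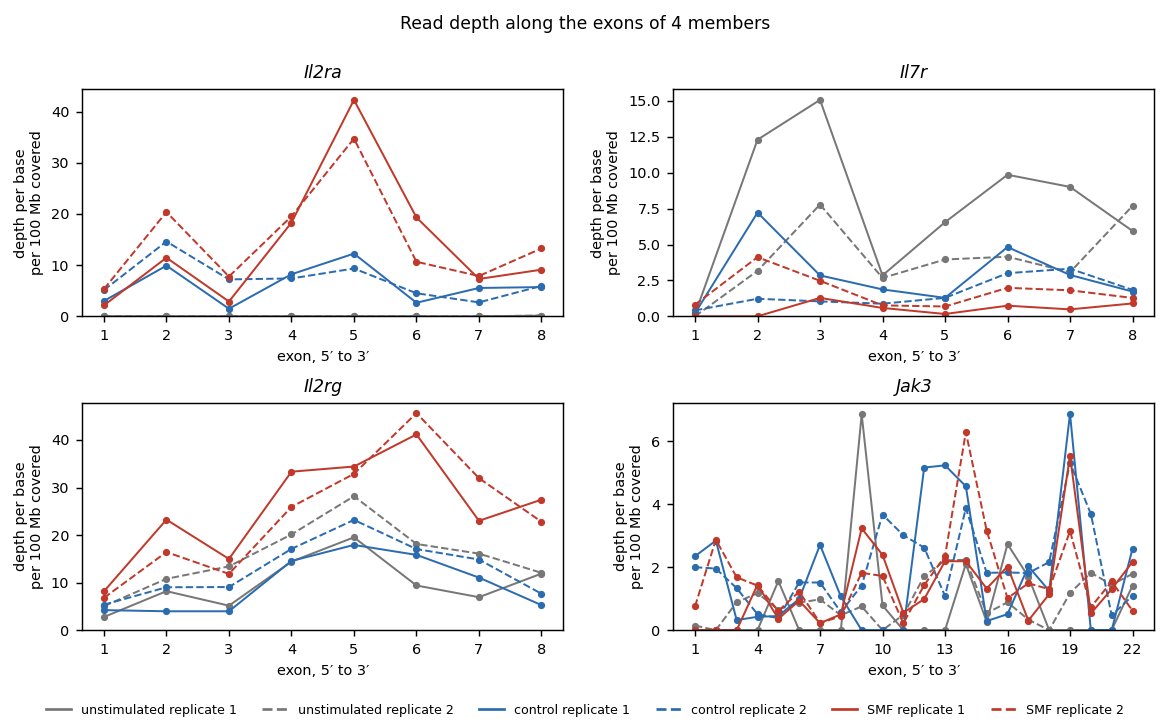
Depth per base on each exon of *Il2ra*, *Il7r*, *Il2rg* and *Jak3* (horizontal axes, exons from 5′ to 3′), all transcripts of the gene together. Values are per 100 Mb of read bases in the library. Solid lines are replicate 1 and dashed lines replicate 2; on *Il2rg* exon 6 the SMF libraries reach 41.2 and 45.6 against 15.8 and 17.1 in control, and on *Jak3* no group is above another over the whole gene.

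The remaining members did not pass between SMF and control. *Il2ra* was 0.82 higher in SMF (SE 0.33, 95% interval 0.01 to 1.62, unadjusted p = 0.0476, adjusted p = 0.234 in limma), a difference below the fold limit, and it was 0.48 after shifting the libraries to one median. *Il7r* was -0.85 in SMF relative to control (SE 0.44, 95% interval -1.92 to 0.22). It was called lower after shifting to one median (-1.19, unadjusted p = 0.0376 in limma), after scaling to one protein-coding sum (-1.16, unadjusted p = 0.0400 in limma) and without SMF replicate 2 (-1.33, unadjusted p = 0.0356 in limma). Of the members, 3 had both SMF libraries higher than either control library (*Il2ra*, *Il2rg*, *Il4ra*), as had 37.4% of tested genes, and 2 had both lower (*Il7r*, *Jak3*), as had 17.4%. An adjusted p of at most 0.05 was reached by 0 members and by 0.0267% of tested genes. Without adjustment, limma gave p of 0.05 or less for 2 of 10 members, *Il2ra* and *Il2rg*, and for 3159 of 14991 tested genes. The median over the members was 0.19, or 0.07 without *Il15ra*, beside 0.32 over all tested genes.

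**Figure D4:**
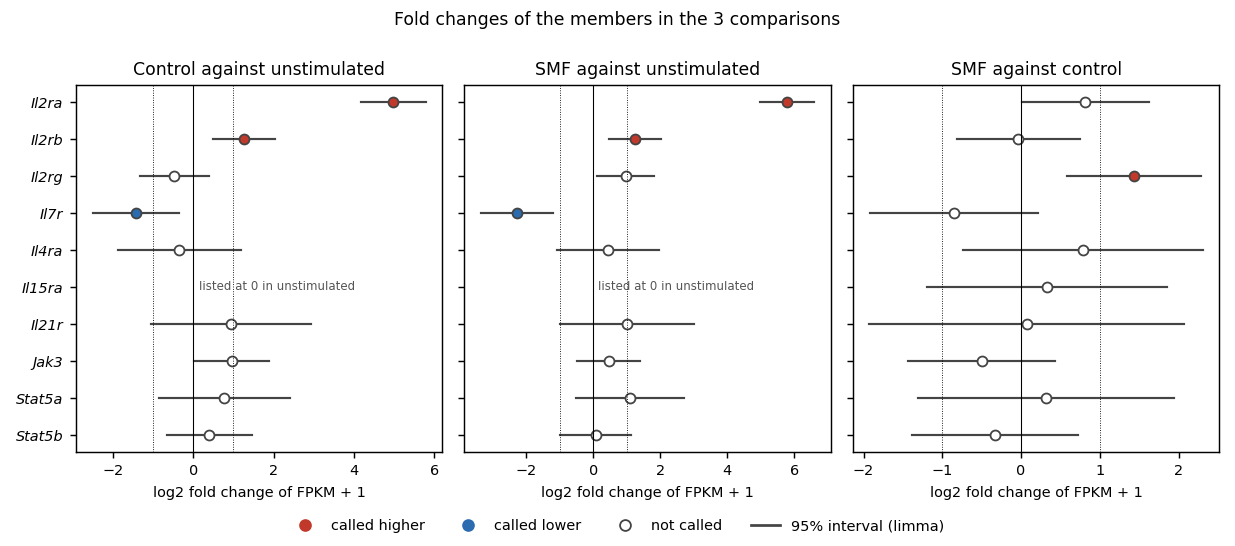
Log2 fold changes of FPKM + 1 (horizontal axes) of the 10 members in the 3 comparisons, with 95% intervals from limma; dotted lines mark a fold of 2. Filled points were called; *Il15ra* has no fold against the unstimulated group, where it is listed at 0, and *Il2rg* at 1.44 is the filled point of SMF against control.

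Against the unstimulated group, SMF cells had the calls that control cells had, and the comparisons share the unstimulated libraries. No folder date held both SMF and unstimulated libraries, so date cannot be told apart here, whereas control and unstimulated libraries shared dates. *Il2ra*, *Il2rb* and *Il15ra* were the 3 called higher (22.4% of tested genes) and *Il7r* the 1 called lower (14.8%), and all 4 had an adjusted p of at most 0.05 (23.6% of tested genes), against 1 in control, *Il2ra* (8.48%). *Il2rg* was 0.97 higher (SE 0.35, unadjusted p = 0.0320 in limma), just under the fold limit. It was 0.71 after shifting the libraries to one median, 0.48 after scaling to one protein-coding sum and 1.03 with coding transcripts alone, a setting in which the median of all genes was 0.72. Both SMF libraries lay above both unstimulated libraries for 5 members (39.7% of tested genes) and below for 1 (26%). The median over the members was 0.99.

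*Jak3* (chromosome 8, 71676296-71690575, plus strand) encodes the kinase bound to the common gamma chain. It was at 6.8 and 7.91 FPKM in the unstimulated libraries, 13.9 and 16.6 FPKM in the control libraries and 9.08 and 12 FPKM in the SMF libraries. The groups did not overlap, control being the highest. Control exceeded unstimulated by 0.96 (SE 0.38, unadjusted p = 0.0459, adjusted p = 0.178 in limma), just under the fold limit, and by 0.93 and 0.99 within the folder dates; it was called at a pseudocount of 0.1 (1.04), after shifting to one median (1.05) and without unstimulated replicate 2 (1.05). Its unadjusted p in limma was over 0.05 with TPM (0.0742), one protein-coding sum (0.0728), the replicate block (0.0626) and coding transcripts alone (0.0951), in the fit of these groups alone without the block (0.0603) and with it (0.0991), and when any library other than unstimulated replicate 2 was left out (0.0557 to 0.104). Much of the signal was on transcripts with a retained intron, which took 100% and 28.4% of *Jak3* FPKM in the unstimulated libraries, 12.8% and 63.7% in control and 86.3% and 76.4% in SMF. Coding transcripts alone held 0 and 5.66 FPKM, 12.1 and 6.04 FPKM, and 1.24 and 2.82 FPKM in these groups.

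*Stat5a* and *Stat5b* encode the STAT5 factors and are neighbours on chromosome 11, at 100859351-100885169 on the plus strand and 100780731-100850724 on the minus strand. *Stat5a* was at 4.79 and 7.73 FPKM in the unstimulated libraries, 10.1 and 12.3 FPKM in the control libraries and 27.9 and 6.95 FPKM in the SMF libraries. Both control libraries were above both unstimulated ones, whereas the SMF replicates were apart. No comparison passed. The difference of SMF from unstimulated rested on 1 library, being 2.02 without SMF replicate 2 (unadjusted p = 0.017 in limma) and 0.16 without SMF replicate 1 (unadjusted p = 0.783 in limma).

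*Stat5b* was at 11.2 and 8.36 FPKM, 17.4 and 9.75 FPKM, and 9.61 and 10.8 FPKM in the unstimulated, control and SMF libraries. These groups overlapped, and differences were 0.39 (95% interval -0.66 to 1.45) for control and 0.07 (95% interval -0.99 to 1.12) for SMF against unstimulated. The share of *Stat5a* in the sum of both genes ran from 30.0% to 74.4% over the libraries. Identical sequence can split reads between them: 15.8% of the windows of 50 bases in the main *Stat5a* transcript occur in *Stat5b*, and 11.8% of those in the main *Stat5b* transcript occur in *Stat5a*. A stretch of 72 exonic bases of *Stat5a* also faces *Stat3* on the opposite strand.

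Among 36 other genes of the pathway, 27 were tested. In control against unstimulated 5 rose (*Stat3*, *Cish*, *Bcl2l1*, *Pim2* and *Myc*) and 2 fell (*Jak1* and *Socs3*), where 12.3% and 12.6% of all tested genes were called. In SMF against unstimulated 10 rose (*Crlf2*, *Socs2*, *Cish*, *Ptpn1*, *Ptpn2*, *Bcl2l1*, *Pim2*, *Myc*, *Ccnd2* and *Lta*) and 2 fell (*Socs3* and *Bcl6*), where 22.4% and 14.8% of all tested genes were called. That split became 7 and 4 after shifting to one median, where all genes gave 2756 higher and 2694 lower of 14991. It became 6 and 4 after scaling to one protein-coding sum, where all genes gave 2345 and 3018 of 15103. In SMF against control *Socs2*, *Mcl1* and *Ccnd2* were called higher and *Bcl6* lower, where 12.5% and 5.72% of all tested genes were. With the first scaling 0 were called higher and 2 lower, and with the second 0 and 1, where all genes gave 877 higher and 1441 lower, and 924 and 1307. The medians over the tested pathway genes were 0.16, 0.62 and 0.67 in that order of comparisons.

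Of the 7 cytokines of the family, *Il2*, *Il4*, *Il7*, *Il9*, *Il15* and *Tslp* were listed at 0 in every library. *Il21* was listed at 1.88 FPKM in SMF replicate 2 and 0.494 FPKM in control replicate 2. No ligand reached the level needed for a test.

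Of the 9 other receptor chains, kinases and STATs, 7 were tested. *Jak1*, the kinase on the partner chains, was at 84.6 and 93.9 FPKM in the unstimulated libraries, 32.5 and 29.3 FPKM in control and 50.7 and 53.4 FPKM in SMF, and its fall in control was -1.50 (SE 0.26, adjusted p = 0.026 in limma). *Crlf2*, which pairs with the chain encoded by *Il7r* to bind thymic stromal lymphopoietin, was listed at 0 in both unstimulated libraries and in control replicate 1, and was at 4.73 FPKM in control replicate 2 and 8.88 and 4.40 FPKM in SMF. *Stat3*, which serves interleukin-21 among others, was at 9.71 and 34.5, 116 and 63.3, and 39.2 and 40.2 FPKM in the unstimulated, control and SMF libraries, a rise of 2.15 in control (SE 0.61, adjusted p = 0.083 in limma).

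**Figure D5:**
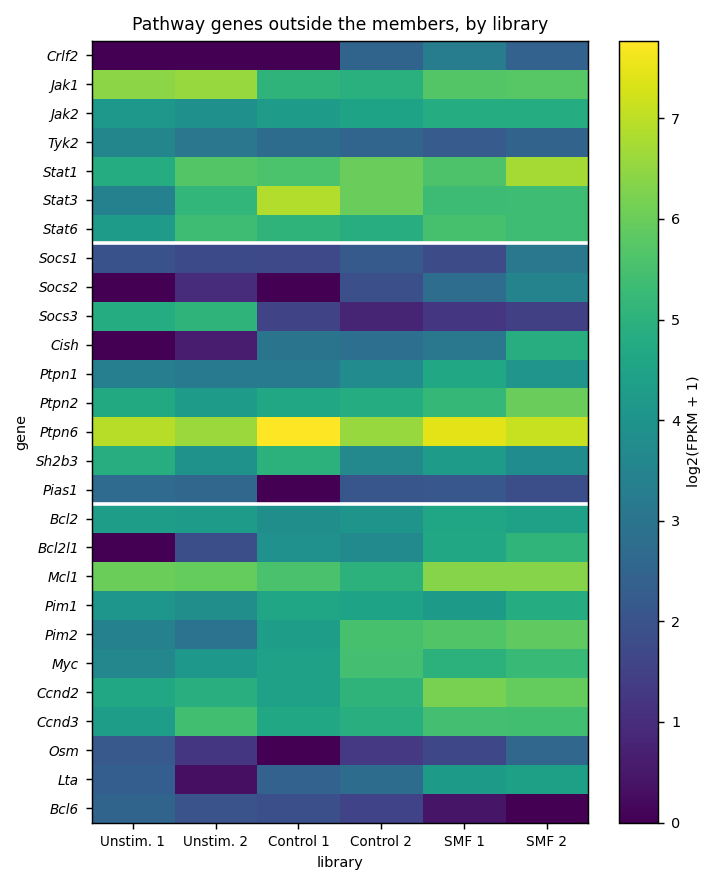
Levels as log2(FPKM + 1) (colour) of the 27 tested pathway genes outside the members (rows) in each library (columns); white lines part receptor chains, kinases and STATs from negative regulators and these from STAT5 targets. *Socs3* is bright in the unstimulated columns alone, *Cish* and *Bcl2l1* are bright in the stimulated ones, and *Lta* is brightest in SMF.

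Of the 9 negative regulators, all tested, 1 rose and 1 fell in control against unstimulated, and 4 rose and 1 fell in SMF against unstimulated. The shares of all tested genes called higher and lower were 12.3% and 12.6% in the first comparison and 22.4% and 14.8% in the second. *Cish*, a feedback inhibitor induced by STAT5, was at 0 and 0.534 FPKM in the unstimulated libraries, 6.93 and 6.14 FPKM in control and 7.62 and 27.5 FPKM in SMF, a rise of 2.60 (SE 0.69, adjusted p = 0.071 in limma) in control and 3.66 (SE 0.69, adjusted p = 0.016 in limma) in SMF. *Socs3* was at 27.3 and 32.1 FPKM before stimulation and between 0.742 and 2.03 FPKM in the 4 stimulated libraries. Its fall was -3.74 (SE 0.50, adjusted p = 0.015 in limma) in control and -3.58 (SE 0.50, adjusted p = 0.0081 in limma) in SMF.

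*Socs2* was at 0 and 0.972 FPKM, 0 and 2.74 FPKM, and 5.92 and 10.2 FPKM in the unstimulated, control and SMF libraries, and was 2.19 higher in SMF than in control (SE 0.83, adjusted p = 0.218 in limma). *Socs1* stayed between 2.30 and 7.69 FPKM and was not called. The phosphatase genes *Ptpn1* and *Ptpn2* were 1.04 (unadjusted p = 0.0458 in limma) and 1.09 (unadjusted p = 0.0293 in limma) higher in SMF than in unstimulated cells. They were not called in the other comparisons.

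Of the 11 genes chosen as STAT5 targets, all tested, 3 rose and 0 fell in control against unstimulated. Their median log2 fold change there was -0.01, with 5 above 0. In SMF against unstimulated 5 rose and 1 fell. The shares of all tested genes called higher and lower were 12.3% and 12.6%, and then 22.4% and 14.8%. *Bcl2l1*, the survival gene of BCL-XL, was at 0 and 2.67 FPKM before stimulation, 14.3 and 12.3 FPKM in control and 23.7 and 32.7 FPKM in SMF. *Pim2*, a survival kinase, was at 9.68 and 6.85, 19.4 and 44.2, and 49.7 and 57.5 FPKM in the unstimulated, control and SMF libraries. Both ran from lowest in the unstimulated group to highest in SMF without overlap. Neither was called between SMF and control (unadjusted p = 0.178 for *Bcl2l1* and 0.117 for *Pim2* in limma), a comparison in which 37.4% of tested genes had both SMF libraries above both control libraries. *Lta*, encoding lymphotoxin alpha, was at 4.02 and 0.258 FPKM, 4.46 and 5.76 FPKM, and 17.7 and 20.4 FPKM, and its rise in SMF over unstimulated was 2.99 (SE 0.71, adjusted p = 0.031 in limma).

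*Myc* rose by 1.09 in control (unadjusted p = 0.0486 in limma) and 1.24 in SMF (unadjusted p = 0.0309 in limma). The cell cycle gene *Ccnd2* was 1.31 higher in SMF than in control (SE 0.34, adjusted p = 0.155 in limma) and the survival gene *Mcl1* 1.1 higher (SE 0.29, adjusted p = 0.159 in limma). *Bcl6*, a repressor that STAT5 is known to lower, was at 4.67 and 2.95 FPKM, 2.75 and 1.93 FPKM, and 0.368 and 0 FPKM. It lay lower in SMF than in either other group, by -1.50 against control (unadjusted p = 0.0400 in limma).

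The genes most like *Il2ra* over the 6 libraries, by the root mean square difference of centred log2(FPKM + 1) among 9394 genes, were *Tfrc* (0.19), *Stk39* (0.19) and *Tnfrsf4* (0.26). *Tfrc* was at 2.32 and 3.01 FPKM in the unstimulated libraries, 82.7 and 106 FPKM in control and 182 and 172 FPKM in SMF. *Stk39* and *Tnfrsf4* were listed at 0 in both unstimulated libraries. Those most like *Il7r* were *4921511I17Rik* (0.16), an antisense gene, *Fbxl22* (0.17) and *Commd1* (0.18). *Commd1* was at 119 and 121 FPKM, 58.0 and 36.7 FPKM, and 24.4 and 37.9 FPKM in the unstimulated, control and SMF libraries.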

How the data were processed

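RNA-Seq values of 6 mouse libraries were used, 2 in each of 3 groups taken from the sample labels. Per the file headers, the authors estimated transcript abundance with StringTie 1.3.5 on GRCm38 and GENCODE M19, for annotated transcripts only and with stranded reads (option fr). Whether that option matches the strand of the library kit was not tested, and which strand's reads the FPKM of a gene holds depends on it, above all for genes that face another on the opposite strand. The submitters' processing notes also name Trimmomatic 0.36 and HISAT2. The deposited values are FPKM, TPM and coverage, with no read counts, so no counting intervals are given. A further gene table has 3 columns that match no sample and was not used. The FPKM of a gene was summed over its transcripts. Gene types came from GENCODE M21, and the promoter and motif sequences from RefSeq windows on GRCm38.p6 (250 bases before to 50 after a start).

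Genes whose mean FPKM was 1 or more were fitted as log2(FPKM + 1) with limma 3.58.1 in R 4.3.3 on all 6 libraries, with a variance trend; the fit was tested on simulated data. A call needed a change of 2-fold or more with p (unadjusted) of 0.05 or less, the thresholds of the study, with Benjamini-Hochberg adjusted p over all genes tested. Fold changes of FPKM + 1 understate those of low genes. The 10 members, 36 other pathway genes and the marker genes were chosen with earlier results of these data known. Some marker genes are not reported here. Genes named in the text were the members, the ligands and SOCS genes, any other pathway gene called in a comparison, the markers, and the 3 genes, of those averaging 5 FPKM or more, most like *Il2ra* and *Il7r*. Alternatives were a pseudocount of 0.1, other filters, TPM, 2 scalings, other variance models, a replicate block, leaving out each library and, added after the data were seen, coding transcripts alone. Tables and plots were made in Python 3.11.15 with pandas 2.3.3 and matplotlib 3.10.9.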

Additional observations from a re-analysis of the deposited data

How the results depend on the processing

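Counts of calls changed with the rule and the scaling. The tested members and pathway genes numbered 10 and 27. At an adjusted p of at most 0.05 in limma, 1 member and 2 pathway genes were called in control against unstimulated. The share of all tested genes was 8.48%. In SMF against unstimulated 6 pathway genes were called, where 23.6% of all tested genes were. In SMF against control 0 members, 0 pathway genes and 4 of all 14991 tested genes then passed. Before adjustment, 2 members, 5 pathway genes and 3159 of all tested genes had a p of at most 0.05 in limma. In SMF against control, 2 members were called after either scaling, and 2 pathway genes after shifting to one median, 1 after scaling to one protein-coding sum, 2 among genes averaging 5 FPKM or more and 9 with coding transcripts alone, the alternative added after the data were seen. In that last setting 1694 of all 9559 genes tested were called higher and 240 lower, with a median of 0.62. All genes gave 877 higher and 1441 lower of 14991 after shifting to one median. They gave 924 and 1307 of 15103 after scaling to one protein-coding sum. Among the 9394 genes averaging 5 FPKM or more, 1432 were higher and 695 lower.

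Same-numbered libraries of the unstimulated and control groups share a folder date; the correlation of their deviations was 0.0963, and it was 0.0301 and 0.0206 for the pairs with SMF. With the replicate block, 4, 1 and 4 members were called in control against unstimulated, SMF against control and SMF against unstimulated. All 14991 tested genes then gave 1817 higher and 1851 lower, 1837 and 873, and 3359 and 2218. With the replicate block and the 2 groups alone, 0 members were called in SMF against control, where all tested genes gave 1182 higher and 581 lower.

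Leaving out each library in turn gave 3 to 4, 0 to 2 and 4 to 5 members, and 4 to 6, 2 to 7 and 5 to 11 pathway genes, in the same order of comparisons. The lowest pathway counts were 4 without unstimulated replicate 2, 2 without SMF replicate 2 or control replicate 1, and 5 without SMF replicate 2; without control replicate 2, 7 were called in SMF against control, and without unstimulated replicate 1, 7 in SMF against unstimulated. The number of all tested genes called also changed with the library left out, so these ranges do not describe the members or pathway genes alone. For SMF against control, calls over all tested genes were fewest without SMF replicate 1 and most without control replicate 2, both for higher and for lower genes. An arm left with 1 library is assumed to vary like the other groups.

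Differences of uncalled members changed sign. For SMF against control, shifting to one median gave -0.015 for *Il15ra*, -0.27 for *Il21r* and -0.023 for *Stat5a*, one protein-coding sum gave -0.25 for *Il21r*, and TPM gave 0.10 for *Il2rb*. For SMF against unstimulated, *Stat5b* was -0.19 and -0.38 under these scalings and -0.078 with coding transcripts alone, and *Il4ra* was -0.0069 with one protein-coding sum. Leaving out single libraries moved control against unstimulated from -1.21 to 0.52 for *Il4ra* and from -0.20 to 2.08 for *Il21r*. It moved SMF against control from -0.072 to 0.0023 for *Il2rb*, -0.33 to 0.98 for *Il15ra*, -0.65 to 0.79 for *Il21r*, -0.61 to 1.25 for *Stat5a* and -0.72 to 0.057 for *Stat5b*. It moved SMF against unstimulated from -0.43 to 1.3 for *Il4ra*, -0.13 to 2.15 for *Il21r* and -0.13 to 0.26 for *Stat5b*. The cause was not tested. The files hold no counts, and depth per library limits what a listing at 0 means.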
